A study of Rattus norvegicus with 10 samples.

Results

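Histone deacetylases remove acetyl groups from lysines of histones and of other proteins. The classical, zinc-dependent family described here was taken as the table rows whose symbol was Hdac1, Hdac2, Hdac3, Hdac4, Hdac5, Hdac6, Hdac7, Hdac8, Hdac9 or Hdac11. Of these 10 listed genes, 9 matched 1 row each among the 16041 rows of the table, and all 9 were abundant enough to be tested. Hdac6, a cytoplasmic enzyme that acts on tubulin, matched no row by symbol and was not analysed here. Prefrontal cortex RNA was sequenced in male Sprague-Dawley rats, with tissue collected on postnatal day 91. The 5 control rats and the 5 early life stress (ELS) rats differed in rearing: the ELS rats went through limited nesting, in which dam and pups have little nest material, from postnatal day 2 to 9. No genotype, transgene or drug was named for either group. The labels give 5 tissue samples per group. They do not say whether rats shared a litter, so the p-values speak only of the spread among the 10 samples at hand, which may be technical in part.

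Removal of acetyl groups from histone tails favours compact chromatin and lower transcription, and in the brain the balance between acetylation and deacetylation is known to bear on memory and on the lasting effects of experience. Class I enzymes (Hdac1, Hdac2, Hdac3 and Hdac8) are mostly nuclear, and apart from Hdac8 they work inside corepressor complexes. Class IIa enzymes (Hdac4, Hdac5, Hdac7 and Hdac9) bind MEF2 transcription factors and leave the nucleus when kinases phosphorylate them and 14-3-3 proteins take hold of them. Class IV holds Hdac11 alone, an enzyme that also removes long fatty acyl groups from proteins.

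The libraries held 18838898 to 22311136 reads. Levels are in RPKM, which divides a gene's reads by its length and by the total of the library, and a group's level is its mean ± SD (n = 5). Differences are ELS minus control on the log2(RPKM + 0.1) scale with the SE of limma, and a gene was called at a Benjamini-Hochberg adjusted p under 0.05 over the 14642 genes tested. The tissue carried cortical markers at high levels, with Camk2a at 783.9 ± 104 RPKM in the control libraries and Nrgn at 718.5 ± 58.9. Control replicate 4 stood apart from the other controls. Its 9 mature oligodendrocyte markers summed to 2336 RPKM against 1132 to 1460 in the other controls and its 6 inhibitory neuron markers to 192.6 against 296.6 to 367.2. ELS replicate 2 was most often the library at the control end of the ELS group. That end is the highest ELS value where the difference was below 0 and the lowest where it was above 0. ELS replicate 2 held it in 37.1% of all tested genes, where the other 4 took 13.2% to 20.1% each. A value at that end can also lie beyond the controls, so the share does not measure closeness to them. In bulk tissue, fewer cells of a type and less RNA per cell cannot be told apart.

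The start regions of 4 members are shown because the 2 members of lowest level, Hdac8 and Hdac9, also had the windows poorest in CpG, the dinucleotide at which vertebrate DNA is methylated. Those of the paralogs Hdac1 and Hdac2 stand beside them as CpG-rich windows. RefSeq windows of the GRCr8 build, 300 bases long and mostly before each annotated start, were found for 9 of the 10 listed genes. No window was found for Hdac11, the most abundant member. CpG counts were 19 to 33 per 300 bases in Hdac1, Hdac2, Hdac3, Hdac4, Hdac5, Hdac6 and Hdac7, 4 in Hdac8 and 2 in Hdac9, against a median of 7 over 33469 windows. The windows printed are Hdac2 (chr20:42102877-42103176, plus strand), Hdac1 (chr5:147165338-147165637, minus strand), Hdac8 (chrX:71632816-71633115, minus strand) and Hdac9 (chr6:57052522-57052821, minus strand), each 5′ to 3′ with CpG in capitals.
Hdac2: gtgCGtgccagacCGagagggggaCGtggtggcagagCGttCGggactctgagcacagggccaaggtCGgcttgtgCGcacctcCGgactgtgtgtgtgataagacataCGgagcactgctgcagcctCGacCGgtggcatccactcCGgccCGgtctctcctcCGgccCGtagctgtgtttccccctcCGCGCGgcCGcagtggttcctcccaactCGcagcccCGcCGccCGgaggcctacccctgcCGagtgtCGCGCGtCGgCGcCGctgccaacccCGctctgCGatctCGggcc
Hdac1: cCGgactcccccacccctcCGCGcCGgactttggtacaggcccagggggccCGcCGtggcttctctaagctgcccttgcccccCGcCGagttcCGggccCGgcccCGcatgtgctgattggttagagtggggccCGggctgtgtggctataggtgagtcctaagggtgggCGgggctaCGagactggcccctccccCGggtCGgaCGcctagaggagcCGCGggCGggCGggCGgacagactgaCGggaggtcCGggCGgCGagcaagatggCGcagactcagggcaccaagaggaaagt
Hdac8: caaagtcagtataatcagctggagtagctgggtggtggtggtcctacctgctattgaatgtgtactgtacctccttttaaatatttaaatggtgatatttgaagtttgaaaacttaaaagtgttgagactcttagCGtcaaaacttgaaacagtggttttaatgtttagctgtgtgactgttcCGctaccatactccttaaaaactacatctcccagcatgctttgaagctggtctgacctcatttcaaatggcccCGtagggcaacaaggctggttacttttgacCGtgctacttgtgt
Hdac9: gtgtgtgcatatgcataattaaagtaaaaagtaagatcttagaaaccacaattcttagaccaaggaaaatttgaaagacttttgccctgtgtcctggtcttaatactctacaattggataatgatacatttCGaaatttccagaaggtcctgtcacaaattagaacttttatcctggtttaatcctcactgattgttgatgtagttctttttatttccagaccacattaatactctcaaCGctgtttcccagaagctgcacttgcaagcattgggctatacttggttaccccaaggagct

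The Hdac2 window was 70% G or C and held more CpG than 92.5% of all windows, and that of Hdac1 was 71% G or C and held more than 86.1%. The Hdac8 window was 41.3% G or C with more CpG than 30.8% of all windows, and that of Hdac9 was 37% with more than 13.6%. The GC box GGGCGG, searched on both strands, occurred 5 times in the Hdac1 window and 1 time in that of Hdac2, and in neither the Hdac8 nor the Hdac9 window. It was present in 33.1% of all windows. The CCAAT box, written CCAAT and searched on both strands, occurred in the windows of Hdac1, Hdac4, Hdac5, Hdac6 and Hdac9, and in 37.5% of all windows. CpG count did not order the levels of the remaining members: Hdac7 had 26 CpG and a mean of 6.33 RPKM over the 10 libraries, and Hdac3 had 26 and a mean of 26.9. A window shows 1 annotated start only, and the counts were made on another build, rn6.

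Hdac11 was the most abundant member in every library. Its mean over the 10 libraries was 58.1 RPKM, 1.98 times that of Hdac2. Hdac2, Hdac5 and Hdac3 formed a middle group with means of 29.3, 27.5 and 26.9 RPKM. Their order was not fixed: Hdac2 exceeded Hdac5 in 7 of 10 libraries, and Hdac5 exceeded Hdac3 in 7 of 10. Hdac4, Hdac1 and Hdac7 followed at 8.95, 6.65 and 6.33 RPKM, with Hdac4 3.002 times below Hdac3, a step that held in all 10 libraries. Hdac1 was above Hdac7 in all 5 control libraries and in 2 of the 5 ELS libraries, a difference in order that was not tested. Hdac9 and Hdac8 were the lowest, at 2.78 and 2.35 RPKM, and Hdac9 was the higher of the pair in 7 of 10 libraries. Within the family, then, the steps from Hdac11 to Hdac2, from Hdac3 to Hdac4 and from Hdac7 to Hdac9 held in every library, the step from Hdac4 to Hdac1 in 9 of 10, and the other 4 in 7 of 10 each.

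**Figure D1:**
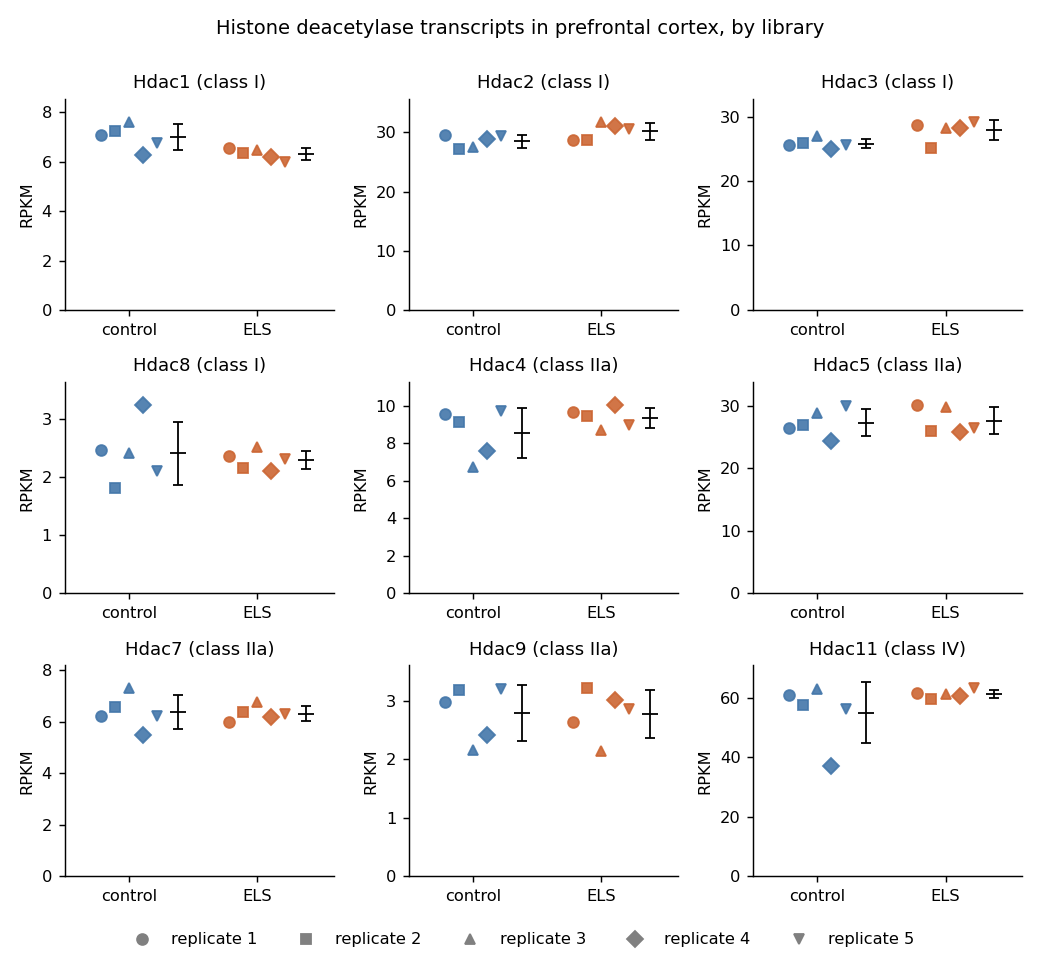
RPKM of each measured member (vertical axis from 0, 1 panel per gene) in the control (blue) and ELS (orange) libraries, with the symbol giving the replicate number and the bar the mean ± SD of 5 libraries. Hdac11 dips to 37.2 RPKM in control replicate 4, and Hdac3 in ELS replicate 2 sits at 25.2 among the controls.

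No member was called different between the groups, and no gene in the table was (0% of 14642 genes). At an unadjusted p under 0.05 there were 2 of 9 members, Hdac1 with the lower mean and Hdac3 with the higher mean in ELS, where the share over all tested genes was 20.4%. That count of 2 was 0 or 1 whenever any 1 library was left out, 1 with upper quartile scaling and 0 with the replicate number as a block. The members' share was near that background. By limma-voom on the recovered reads 0 members and 0 genes were called as well. Without ELS replicate 2, 440 genes and still 0 members were called, and without both it and control replicate 4, 1071 genes and 0 members. Complete separation of the 5 ELS from the 5 control libraries was seen in 0 of 9 members, against 5.68% of all tested genes. The median log2 difference of the 9 members was 0.02, beside 0.00371 for all genes, and 4 of the 9 had lower means in ELS. The 95% intervals of all 9 lay inside a 1.5-fold change in either direction, the widest upper bound being 1.37-fold for Hdac11 and the lowest lower bound 0.784-fold for Hdac8.

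**Figure D2:**
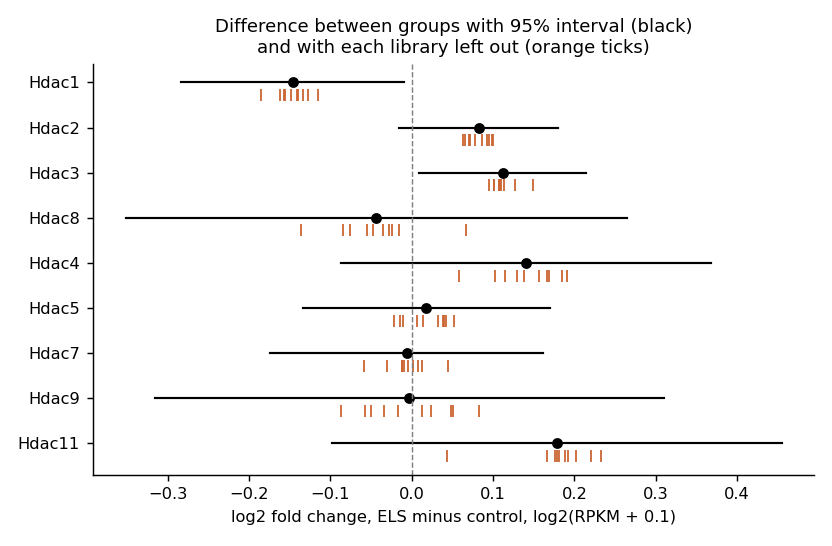
Log2 difference of each member, ELS minus control (horizontal axis, log2(RPKM + 0.1) scale): black points with lines give the value of all 10 libraries with its 95% interval, and orange ticks the 10 values with 1 library left out. The intervals of Hdac1 and Hdac3 lie on 1 side of 0, and the value of Hdac11 drops to 0.0435 without control replicate 4.

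Among the class I enzymes, Hdac1 and Hdac2 are close paralogs that form the shared catalytic core of the Sin3, NuRD and CoREST complexes. Hdac1 (ENSRNOG00000009568) was at 7.08, 7.24, 7.62, 6.27 and 6.78 RPKM in control replicates 1 to 5 and at 6.57, 6.34, 6.46, 6.18 and 5.97 in ELS replicates 1 to 5. All 5 ELS values lay below the control mean, and control replicate 4 fell inside the ELS range. The means were 6.999 ± 0.511 and 6.30 ± 0.236, a log2 difference of -0.15 ± 0.06 (SE; limma, unadjusted p = 0.0386, adjusted p = 0.222). Without control replicate 4 the ranges of the 2 groups did not meet, and the difference was -0.18 ± 0.06 (adjusted p = 0.12). This follows from leaving out the control that fell inside the ELS range. The share of all tested genes that separate without that library was not counted. Each of these values rested on 238 to 321 reads. Counting error alone gives a coefficient of variation of 6.06% at that depth, and the observed ones were 7.31% in controls and 3.75% in ELS.

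A related row bears on Hdac1. Hdac1l (ENSRNOG00000013695), listed as Hdac1-like and not among the 10 genes of the family list, was at 3.95 to 4.40 RPKM in the control libraries and at 3.15 to 3.57 in ELS. All 5 ELS libraries were below every control library, with a log2 difference of -0.30 ± 0.07 (SE; limma, unadjusted p = 0.00131, adjusted p = 0.133). Complete separation was seen in 5.68% of all tested genes, and Hdac1l was added after its values were seen. Near-identical copies can share or lose reads in counting, and the sources used here do not say how such reads were treated, so the split between Hdac1 and Hdac1l is uncertain. Hdac1l held 90 to 138 reads per library.

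Hdac2 (ENSRNOG00000000604), the more abundant paralog, was at 29.5, 27.2, 27.5, 28.8 and 29.3 RPKM in the control libraries and at 28.8, 28.7, 31.8, 31.0 and 30.5 in ELS. ELS replicates 3, 4 and 5 were above every control, and ELS replicates 1 and 2 lay within the control range. The means were 28.5 ± 1.06 and 30.2 ± 1.38, a log2 difference of 0.08 ± 0.04 (adjusted p = 0.314). Hdac1 made up 19.7% ± 1.595 of the summed RPKM of the pair in controls and 17.3% ± 0.975 in ELS. The groups overlapped in this share, at 17.9% to 21.7% and 16.4% to 18.6%.

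Hdac3 (ENSRNOG00000019618), the deacetylase that NCoR and SMRT corepressors activate, was at 25.6, 25.9, 26.9, 25 and 25.6 RPKM in controls. In ELS replicates 1 to 5 it was at 28.7, 25.2, 28.2, 28.3 and 29.2. Of the ELS libraries 4 were above every control, and ELS replicate 2 sat at the low end of the control range. With all libraries the means were 25.8 ± 0.704 and 27.9 ± 1.58, a log2 difference of 0.11 ± 0.05 (SE; limma, unadjusted p = 0.0348, adjusted p = 0.214). Without ELS replicate 2 the ELS mean was 28.6 ± 0.462 and the difference 0.15 ± 0.04 (adjusted p = 0.063). Without both that library and control replicate 4 the difference was 0.14 ± 0.04 (adjusted p = 0.051), still short of the threshold.

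Hdac8 (ENSRNOG00000003122), which deacetylates the cohesin subunit Smc3, was the rarest member, with 78 to 142 reads per library. It was at 2.47, 1.80, 2.41, 3.24 and 2.09 RPKM in the control libraries and at 2.36, 2.16, 2.51, 2.11 and 2.31 in ELS. The ELS libraries lay close together inside the control range, whose top was control replicate 4. That value came from 142 reads (95% Poisson interval 119.6 to 167.4), and the lowest, in control replicate 2, from 78 (61.7 to 97.3). Such intervals cover counting error only. The coefficient of variation was 22.4% in controls and 6.97% in ELS, where counting alone gives 10.3%. The log2 difference was -0.04 ± 0.14 (adjusted p = 0.884). It was 0.0670 once control replicate 4 was left out.

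Among the class IIa enzymes Hdac5 was the most abundant. Hdac5 (ENSRNOG00000020905), whose exit from the nucleus in neurons follows calcium signalling, was at 26.4, 26.9, 28.8, 24.4 and 29.96 RPKM in the control libraries and at 30.2, 25.95, 29.8, 25.8 and 26.5 in ELS. Both groups ran over nearly the same range, with means of 27.3 ± 2.17 and 27.6 ± 2.17. The log2 difference was 0.02 ± 0.07 (adjusted p = 0.902, 95% interval -0.13 to 0.17).

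Hdac4 (ENSRNOG00000020372), a brain-enriched repressor of MEF2, was at 9.56, 9.15, 6.71, 7.58 and 9.74 RPKM in the control libraries and at 9.65, 9.43, 8.69, 10.04 and 8.96 in ELS. Control replicates 3 and 4 were the low libraries, and the other 8 lay between 8.69 and 10.04. The log2 difference was 0.14 ± 0.10 (adjusted p = 0.458). It was 0.0586 once control replicate 3 was left out. Hdac9 (ENSRNOG00000004158), which also has a short form without the catalytic domain known as MITR, was at 2.97, 3.18, 2.16, 2.41 and 3.21 RPKM in the control libraries and at 2.63, 3.22, 2.14, 3.01 and 2.86 in ELS. Its log2 difference was -0.0028 ± 0.14 (adjusted p = 0.992). Its reads, 304 to 498 per library over a gene model of 7099 bases, would give a coefficient of variation of 4.99% by counting alone, and the observed values were 17.1% in controls and 14.8% in ELS. The gene-level value does not separate MITR from the full-length form.

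Hdac7 (ENSRNOG00000055597), best known from endothelial cells and thymocytes, was at 6.23, 6.58, 7.30, 5.46 and 6.22 RPKM in the control libraries and at 5.98, 6.36, 6.76, 6.17 and 6.28 in ELS. The ELS values lay inside the control range, which control replicates 3 and 4 set at either end. The log2 difference was -0.006 ± 0.08 (adjusted p = 0.971). Endothelial markers with a row, 3 of 5, summed to 13.9 to 18.1 RPKM in the control libraries and 13.6 to 16.9 in ELS, with the lowest control sum in control replicate 4. Their part in the Hdac7 level was not tested.

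Hdac11 (ENSRNOG00000006824), the class IV enzyme, was at 60.8, 57.7, 62.9, 37.2 and 56.2 RPKM in the control libraries and at 61.5, 59.4, 61.1, 60.6 and 63.2 in ELS. The 5 ELS libraries were tightly grouped, with a coefficient of variation of 2.25% where counting alone gives 1.84%, and 4 of the 5 controls were at 56.2 or above. Control replicate 4 was far below all others, on 2082 reads (95% Poisson interval 1994 to 2173) against 2778 to 3197 in the other 9 libraries. The log2 difference was 0.18 ± 0.12 (SE; limma, adjusted p = 0.44). Without control replicate 4 the control mean was 59.4 ± 3.03 instead of 54.96 ± 10.3, and the difference was 0.04 ± 0.04 (adjusted p = 0.565). In the same library the oligodendrocyte, precursor and astrocyte marker sums were the highest of the 10 libraries, at 2336, 78.9 and 606.2 RPKM. The precursor markers did not all go that way: Olig1 was the highest of the controls there at 36.3 RPKM, and Pdgfra the lowest at 9.72. Its excitatory neuron sum was the highest of the controls, 2105 against 1858 to 1990 RPKM. Within that sum Camk2a was the highest of the controls at 963.7 RPKM and Nrgn the lowest at 623.7. Its inhibitory and striatal sums were the lowest of all 10 libraries, at 192.6 and 37.1. Their part in the low Hdac11 value was not tested.

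The class IIb enzyme in the table that is outside the family list, Hdac10, was at 9.36 ± 0.953 RPKM in the control libraries and 9.20 ± 0.517 in ELS, a log2 difference of -0.02 ± 0.07 (adjusted p = 0.897).

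**Figure D3:**
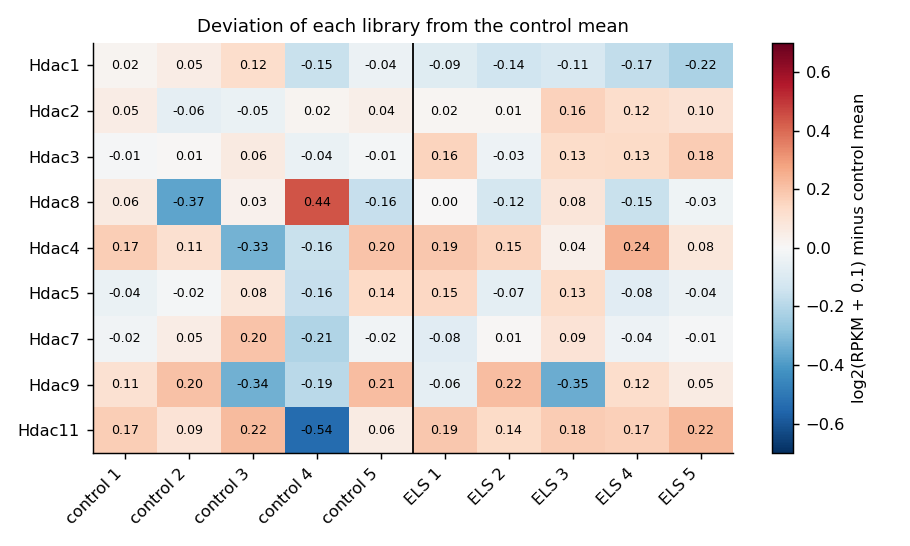
Deviation of each library (columns) from the control mean of each member (rows), on the log2(RPKM + 0.1) scale, with red above and blue below that mean. Control replicate 4 is low in Hdac11 at -0.54 and high in Hdac8 at 0.44, and Hdac4 and Hdac9 are low together in control replicate 3 at -0.33 and -0.34.

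Some pairs of members varied together from library to library and others in opposite directions, with a negative correlation in 19 of 36 pairs once the group means were removed. Hdac4 and Hdac9 had the highest Pearson correlation of the 36 pairs, r = 0.83 over 10 libraries, and 0.81 over the 9 without control replicate 4. Control replicate 3 was the lowest control library in both genes, and ELS replicate 3 the lowest ELS library in both. Hdac1 and Hdac7 followed at r = 0.80, which was 0.58 without control replicate 4. The pairs Hdac7 with Hdac11 (0.78) and Hdac1 with Hdac11 (0.77) went to 0.46 and 0.40 without that library. Hdac8 and Hdac11 had the lowest r, -0.66, which became 0.68 without it. Over those 9 libraries the lowest were Hdac4 with Hdac7 at -0.91 and Hdac7 with Hdac9 at -0.75, which were -0.33 and -0.26 over all 10. These correlations describe 10 libraries whose values share the library total as their divisor.

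The genes most like each member were sought among 13227 other tested genes with a mean of at least 1 RPKM, so high values of r arise from the search alone. For Hdac4 the nearest was Gad2, the gene of a GABA-synthesising enzyme, at r = 0.96, followed by the cell-surface gene Adam23 at 0.96. Hdac9 was nearest to Wdfy3, a large adaptor gene of selective autophagy, at 0.95, and then to Zmat3. Hdac5 was nearest to Vash1 at 0.97 and Slc35c1 at 0.95, and Hdac7 to Basp1, a growth cone protein gene, at 0.96 and Hsbp1 at 0.96. Hdac1 was nearest to Hip1r at 0.98 and to the mitochondrial gene Mt-co2 at 0.96, Hdac2 to Spns1 and Pls3 at 0.94 each, Hdac3 to a row labelled U2 at 0.96 and to Rras at 0.95, and Hdac8 to Trit1 at 0.97 and Olfml1 at 0.95. Hdac11 was nearest to LOC691153 and to Ngef, a neuronal guanine nucleotide exchange factor gene, at 0.99 each. Both were also low in control replicate 4, Ngef at 35.6 RPKM against 99.9 to 120.2 elsewhere, and without that library their r with Hdac11 was 0.80 and 0.82.

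By class, the 4 class I genes summed to 63.7 ± 1.005 RPKM in the control libraries and 66.7 ± 2.58 in ELS. ELS replicate 2, at 62.4, was the ELS library within the control range of 62.2 to 64.7. The 4 class IIa genes summed to 44.98 ± 3.34 and 46.1 ± 1.73, with control replicate 4 the lowest at 39.8. Without that library the control mean was 46.3 ± 1.94, and the ELS mean minus the control mean went from 1.08 to -0.207 RPKM. Class I held 39.1% ± 3.36 of the summed RPKM of the 9 members in controls and 38.3% ± 0.740 in ELS, class IIa 27.5% ± 1.25 and 26.5% ± 0.827, and Hdac11 33.3% ± 4.02 and 35.2% ± 0.608. Without control replicate 4 the control shares were 37.6% ± 0.218, 27.3% ± 1.34 and 35.1% ± 1.39. Control replicate 4 was the library farthest from the rest in this make-up, with 45.1% class I and 26.5% Hdac11, and no test was made of these sums.

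**Figure D4:**
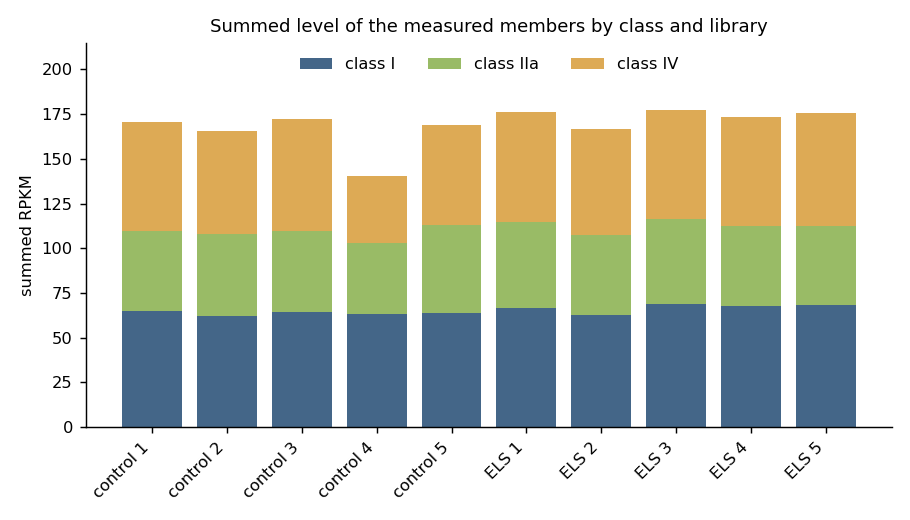
Summed RPKM of the 9 measured members in each library (vertical axis from 0), split into class I, class IIa and class IV (Hdac11). The total is 140.3 in control replicate 4 and 165.6 to 177.6 in the other 9 libraries, and the shorter bar is mostly a shorter class IV part.

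The deacetylases work with corepressor subunits, kinases, opposing acetyltransferases and readers of acetyl-lysine, and 12 lists of such genes held 117 distinct table rows that were tested. None was called (0 higher, 0 lower). At an unadjusted p under 0.05, 19 rows had higher and 14 lower means in ELS, 28.2% of the rows beside 20.4% of all tested genes. Over all 14642 tested genes, 1475 were higher and 1513 lower at that threshold. No test of the lists was made. The partner rows whose levels are given below were chosen for the lowest p within their list, and a low p favours complete separation of the groups. Such separation was seen in 5.68% of all tested genes. Its share among genes of low p was not counted.

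In the complexes of Hdac1 and Hdac2, the Sin3 list had 1 higher and 1 lower of 10 rows at that unadjusted threshold, with a median log2 difference of 0.04. Ing2, a reader of methylated histone H3, was at 6.09 ± 1.06 RPKM in the control libraries and 7.42 ± 0.335 in ELS, and Sap18 at 8.22 ± 0.817 and 6.59 ± 0.986. The NuRD list had 4 higher and 0 lower of 12, with a median of 0.02. Chd5, its neuronal remodelling ATPase, was at 40.1 ± 4.41 and 49.4 ± 2.62 RPKM, with every ELS library above every control (log2 difference 0.31 ± 0.08, adjusted p = 0.133), and control replicate 4 was the lowest control at 32.2. Rbbp7, a histone chaperone subunit of both complexes, was at 48.7 ± 1.41 and 53.9 ± 2.76. The CoREST list had 1 higher and 0 lower of 11 rows, with a median of -0.02. Its scaffold Rcor1 had 2 rows, of which the row nearest to the threshold was at 4.46 ± 0.129 and 4.96 ± 0.282 RPKM and the other had a log2 difference of -0.0152. Rest, the repressor that recruits CoREST to neuronal genes, was at 1.08 ± 0.143 and 0.827 ± 0.210.

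Among partners of Hdac3, 1 of 5 NCoR and SMRT rows had a lower mean at an unadjusted p under 0.05 and 0 a higher one, with a median of -0.03. Tbl1xr1, an exchange factor of the complex, was at 15.0 ± 0.884 RPKM in the control libraries and 13.4 ± 1.34 in ELS, and Ncor1 itself at 20.8 ± 1.61 and 18.5 ± 2.12. In both genes ELS replicate 2 was the highest ELS library, at 15.7 and 21.2 RPKM. MiDAC is a complex of Hdac1 and Hdac2 rather than of Hdac3. The 3 MiDAC rows had none at that threshold (median 0.01), with Trerf1 at 9.13 ± 0.900 and 9.93 ± 0.776 and Dnttip1 at 13.3 ± 0.787 and 13.4 ± 0.349. Cohesin genes, partners of Hdac8, had lower means in 8 of 10 rows, beside 7226 of all 14642 tested genes. At an unadjusted p under 0.05, 4 rows were lower and 1 higher, with a median of -0.13. Nipbl, the cohesin loader, was at 5.60 ± 0.264 and 4.34 ± 0.779 RPKM (log2 difference -0.37 ± 0.11, adjusted p = 0.133), and at 5.69 in ELS replicate 2. Stag2 was at 9.08 ± 0.368 and 7.93 ± 0.528, with all 5 ELS libraries below every control.

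Of the genes that act on the class IIa enzymes, none was called. Of 18 rows of MEF2 factors, kinases and cofactors, 4 had higher and 2 lower means at an unadjusted p under 0.05, with a median of 0.05. Dnajb6, a chaperone gene with a reported role in class IIa recruitment, was at 17.4 ± 0.180 RPKM in the control libraries and 19.96 ± 0.771 in ELS, and all 5 ELS libraries were above every control (log2 difference 0.20 ± 0.04, adjusted p = 0.133). Prkd3, a protein kinase D gene, was at 2.48 ± 0.294 and 1.74 ± 0.383, with ELS replicate 2 at 2.37 inside the control range. The 14-3-3 genes had higher means in 6 of 6 rows, 4 of them at an unadjusted p under 0.05, with a median of 0.15. Of all 14642 tested genes 7226 had lower means in ELS, and the list was chosen with earlier results of these data known. Ywhah was at 587.6 ± 41.6 RPKM in the control libraries and 712.0 ± 37.3 in ELS (log2 difference 0.28 ± 0.06, adjusted p = 0.133), and Ywhab at 217.7 ± 6.13 and 241.7 ± 9.25, and in both every ELS library was above every control. The 14-3-3 transcripts are abundant in neurons, and mean RPKM in ELS was higher in 5 of 6 excitatory neuron markers and lower in 9 of 9 mature oligodendrocyte markers. The part of cell make-up in the 14-3-3 values was not tested.

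Among genes tied to tubulin acetylation and to Hdac6, 3 of 10 rows had higher and 2 lower means at an unadjusted p under 0.05 (median 0.07). Sqstm1, a cargo receptor of autophagy, was at 144.1 ± 2.95 RPKM in the control libraries and 158.3 ± 3.93 in ELS, with every ELS library above every control, and Vcp, a segregase ATPase, at 72.2 ± 2.48 and 80.2 ± 5.24. In the sirtuin list, the NAD-dependent deacetylases outside the classical family, 1 of 7 rows was lower at that threshold and 0 higher (median -0.01). It was Sirt2, a tubulin deacetylase abundant in oligodendrocytes, at 60.8 ± 7.66 and 52.6 ± 1.83 RPKM and at 73.6 in control replicate 4. Sirt1 was at 4.19 ± 0.588 and 3.89 ± 0.176. The part of oligodendrocyte RNA in the Sirt2 values was not tested.

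Acetyltransferases, which oppose the deacetylases, had 1 higher and 2 lower of 14 rows at an unadjusted p under 0.05 (median -0.05). Kat6a was at 7.16 ± 0.977 RPKM in the control libraries and 5.61 ± 0.805 in ELS, and Kat2b at 1.17 ± 0.0907 and 0.900 ± 0.128, with all 5 ELS libraries below every control in Kat2b. Readers of acetyl-lysine had 0 higher and 2 lower of 12 (median 0.04). Atad2b was at 2.08 ± 0.0730 and 1.53 ± 0.215 RPKM, with all 5 ELS libraries below every control (log2 difference -0.43 ± 0.11, adjusted p = 0.133), and Baz2b at 5.20 ± 0.258 and 4.07 ± 1.10, with ELS replicate 2 at 5.87 above every control.

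The 24 partner rows named here were chosen as the 2 of lowest p in each list. ELS replicate 2 was the ELS library at the control end in 20 of them. The share among other genes of low p was not counted. ELS replicate 2 was at that end in 4 of the 9 deacetylases (Hdac2, Hdac3, Hdac9 and Hdac11) and in 37.1% of all tested genes. In Hdac9, whose difference was near 0, its value of 3.215 RPKM was above the highest control, 3.207.

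**Figure D5:**
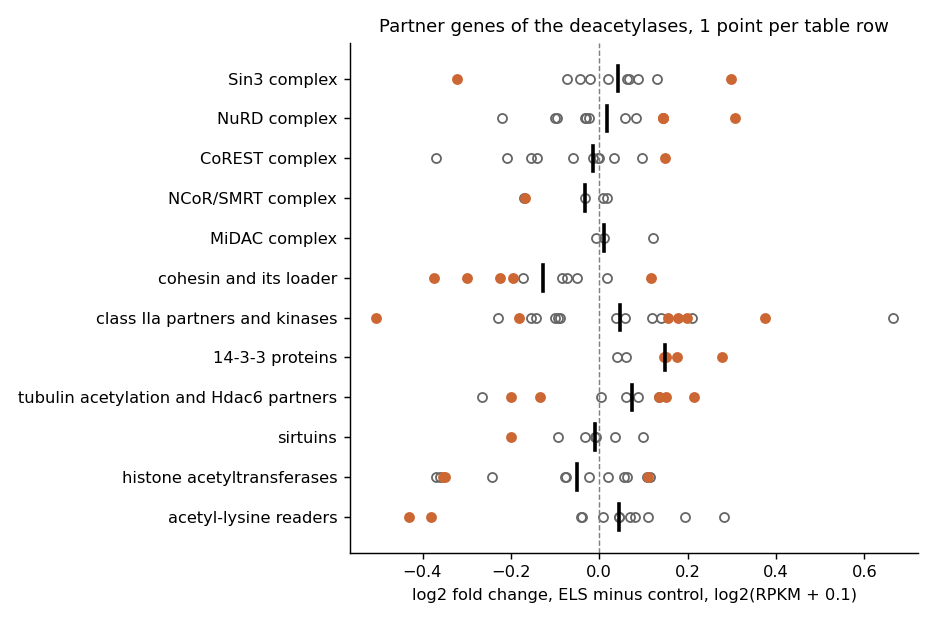
Log2 difference, ELS minus control (horizontal axis, log2(RPKM + 0.1) scale), of every tested row in the 12 partner lists, with filled orange points at an unadjusted p under 0.05 and a black bar at each list's median. The 6 points of the 14-3-3 list all lie above 0, and 8 of 10 cohesin points lie below it, as do 7226 of all 14642 tested genes.

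No marker gene of any cell type was called. The summed markers of mature oligodendrocytes were at 1132 to 2336 RPKM in the control libraries and 849.4 to 1121 in ELS, led by Mbp. Those of the precursor list were at 57.3 to 78.9 and 46.8 to 57.2, led by Olig1 and Pdgfra. That list includes Olig1, Olig2 and Sox10, which mature oligodendrocytes also express, so its sum is not of precursors alone. Its log2 differences ran from -0.56 in C1ql1 to -0.07 in Cspg4, with Pdgfra at -0.19. Astrocyte sums were at 411.3 to 606.2 and 351.6 to 398.0, led by Slc1a3 and Gja1. Every ELS sum of these 3 lists lay below every control sum, narrowly so in the precursor list, at 57.19 against 57.33 RPKM. Complete separation was seen in 5.68% of all tested genes, and its share among such sums was not counted. The lists were chosen with earlier results of these data known. Microglial sums were at 96.9 to 115.0 and 85.0 to 102.1, led by C1qa and Csf1r, and blood cell sums at 411.5 to 981.0 and 213.8 to 438.0, led by Hba-a2 and Hbb. Excitatory neuron sums were at 1858 to 2105 and 2020 to 2348, inhibitory neuron sums, led by Sst and Pvalb, at 192.6 to 367.2 and 338.9 to 383.0, and striatal sums, led by Ppp1r1b, at 37.1 to 127.7 and 64.6 to 71.1. No marker with a row was at 0 in every library. The deacetylases are made in neurons and in glia, in proportions that these bulk libraries do not give. The part of the marker differences in the values of Hdac1 and Hdac3 was not tested.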

How the data were processed

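Poly(A) RNA libraries (Illumina TruSeq Stranded mRNA kit, per the labels' protocols) from 10 prefrontal cortex samples, 5 control and 5 ELS, were analysed from 1 table of RPKM values that the authors deposited. STAR, featureCounts and the rn6 build are named in the submitters' processing notes, with no versions. The annotation release, the strand setting and the treatment of reads shared between gene copies are not stated in the sources used here. The values are whole multiples of 1 read per gene, so reads, lengths and totals could be worked back for 100% of the 16015 rows above 0 (tolerance 0.002 reads). Rows with at least 0.5 RPKM in at least 5 libraries were kept (14642, with 1399 removed). The test was limma 3.58.1 in R 4.3.3 on log2(RPKM + 0.1), two-sided, with mean-variance trend and robust variances, and Benjamini-Hochberg adjustment over all rows tested. The pseudocount understates differences of low genes. The procedure was tested on simulated data. These had the same dispersion for every gene, no deviating library and larger changes than the members showed. The simulation therefore does not cover deviating libraries or differences as small as those of the members. Alternatives were limma-voom on the recovered reads, other pseudocounts, filters and scalings, sample quality weights, a replicate block and leaving out libraries.

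The members, partner lists and marker lists were chosen with earlier results of these data known. Genes named are all members, the 2 of lowest unadjusted p in each partner list, the 2 most correlated with each member and the 2 of highest mean in each marker list. Some marker genes that this rule names are not reported here. Hdac1l, Hdac10 and the second Rcor1 row were added after their values were seen. Promoter windows come from RefSeq (GRCr8) and were matched by symbol.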

Additional observations from a re-analysis of the deposited data

Results flagged for a closer look

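Of 22 groups of 5 values examined, 2 held a library far from the other 4, where chance gives about 1 in 20 groups. Hdac3 in ELS replicate 2 was at 25.2 RPKM, and its gap to the next ELS library was 0.753 of the group's whole range. Hdac11 in control replicate 4 was at 37.2 RPKM, with a gap of 0.740 of the range. The same control library had the highest oligodendrocyte marker sum, 2336 RPKM, and the lowest inhibitory neuron marker sum, 192.6. The part of these in its Hdac11 value was not tested.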

How the results depend on the processing

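None of the 9 members was called in any of the 20 alternatives, including limma-voom. The lowest adjusted p over them was 0.051 for Hdac3 and 0.0584 for Hdac1. The 2 members at an unadjusted p under 0.05 became 0 or 1 in 12 of the 20. The count of all genes called did depend on the libraries: it was 0 with all 10, 866 with sample quality weights, 1071 without both ELS replicate 2 and control replicate 4, and 0 to 440 with 1 library left out, the 440 being without ELS replicate 2. The cause was not tested. Differences near 0 changed sign. That of Hdac5 was -0.00081 with upper quartile scaling, -0.0013 with weights and -2.84e-05 without both libraries, and that of Hdac8 was 0.049 with weights and 0.086 without both. With 1 library left out, the log2 difference ran from -0.022 to 0.052 in Hdac5, -0.058 to 0.044 in Hdac7, -0.136 to 0.067 in Hdac8 and -0.087 to 0.083 in Hdac9. With the replicate number as a block, 0 members and 0 genes were called, and the adjusted p was 0.296 for Hdac1 and 0.317 for Hdac3. Same-numbered samples did not deviate together (r -0.08 to 0.07, 0 of 5 pairs over 0.1), and 3 of 10 libraries correlated best with their own number. Depth limits Hdac8 most, at 78 to 142 reads.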
